A study of Homo sapiens with 2 samples.

Results

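The genes described here are the centromere proteins (CENP genes), the numbered kinesins (KIF genes) and 5 outer kinetochore genes, NDC80, NUF2, SPC24, SPC25 and MIS12. They were chosen by gene symbol and not by signal, and 61 of the 18404 genes with a probe set of their own belonged to them, read by 64 probe sets. RNA was measured in wild-type HL-60, a line of human leukaemia cells at the promyelocyte stage, and each of 2 replicates was hybridised to an Affymetrix Human Gene array. Cells were grown in DMEM with 10% serum at 37 °C and 5% CO2 without a stated treatment, and total RNA was amplified and labelled with biotin. With 1 group of 2 arrays from 1 cell line there was no contrast of conditions and no test, and it is not stated whether separate cultures were used, so the spread may be technical.

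The kinetochore is the protein structure that joins a chromosome's centromere to spindle microtubules in cell division. Its inner part, the constitutive centromere-associated network, sits on nucleosomes that carry the histone variant CENP-A, and its outer part, which includes the Ndc80 and Mis12 complexes, binds the microtubules. Kinesins are motors that use ATP to move along microtubules or to take them apart. Mitotic kinesins build the spindle, align chromosomes and complete cytokinesis, and many of their genes are transcribed mainly in G2 and mitosis. Transport kinesins carry vesicles, organelles and other cargo in cells that need not divide, and several are known chiefly from neurons.

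The values were log2 signals made with RMA, and mean ± SD refers to the 2 arrays (n = 2). Genes counted as above background if they exceeded, on both arrays, the 95th percentile of 360 olfactory receptor genes (2.98 on replicate 1 and 2.88 on replicate 2). A stricter second threshold was the 95th percentile of 115 keratin-associated protein, bitter taste receptor and beta-defensin genes (5.41 and 5.23). Differences between the arrays over all genes had an SD of 0.39, equal to an SD of 0.28 per array, and this is a better guide to the error than the SD of a single gene. A signal also depends on the probes, so signals of different genes are not relative transcript amounts. In RNA from a whole culture, fewer cells in a cell cycle phase and less RNA per cell cannot be told apart. Promyelocyte markers were above background in 9 of 9 measured cases and above the second threshold in 5 (55.6%). Of 34 measured markers of monocytes, lymphocytes, erythroid cells, megakaryocytes, epithelium and stroma 11 (32.4%) were above background and 0 above the second threshold. Among all genes the shares were 55.8% and 17.0%. The 34 were not alike: 3 of 5 B cell markers (60.0%) were above background, and 1 of 6 monocyte markers (16.7%). The marker lists were chosen with earlier results of these data known, so they are no independent check of the cell type.

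Kinetochore genes and mitotic kinesins were almost all above background on both arrays, whereas 7 of 15 transport kinesins were, a share near that of all genes. Of 33 kinetochore and mitotic kinesin genes 31 (93.9%) were above background, against 55.8% of all genes on the array. The second threshold was passed by 16 of the 33 (48.5%), against 17.0% of all genes. Of 15 transport kinesins 7 (46.7%) were above background and 1 (6.67%) above the second threshold, both shares lying under those of all genes. The first depended on the array: 7 passed on replicate 1 and 9 on replicate 2, beside 10796 and 11135 of all 18404 genes. Of the remaining 13, mostly kinesins of cilia and of mixed or less studied roles, 7 (53.8%) were above background and 1 (7.69%) above the second threshold. The median signal was 5.49 for the kinetochore and mitotic kinesin genes, 2.97 for the transport kinesins and 3.22 for the remaining genes, beside 3.33 for all genes. High shares were not particular to the kinetochore and mitotic kinesin genes. In lists of other cell cycle genes, all 15 of G2 and mitosis and all 15 of G1 and S phase were above background. Above the second threshold were 13 (86.7%) and 10 (66.7%), with median signals of 6.48 and 5.77. No test stands behind these shares, since genes are not replicates.

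**Figure D1:**
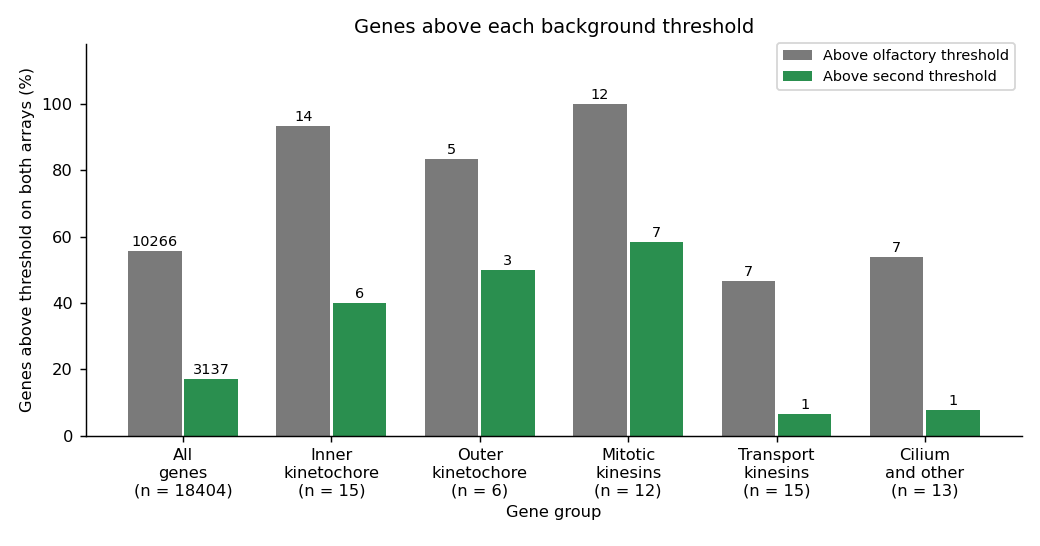
Percentage of genes above each threshold on both arrays (y axis) for all genes and for the 5 gene groups (x axis), with the number of genes above each bar. All 12 mitotic kinesins passed the olfactory threshold and 7 the second, while 7 of 15 transport kinesins passed the first and 1 the second.

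All 12 genes placed among the mitotic kinesins were above background; KIF2B, a depolymerase that can also act at the spindle, was placed with the cilium and other genes and was not, so a list with it would count 12 of 13. KIF23, the motor of the centralspindlin complex that acts in cytokinesis, was the highest at 7.64 on replicate 1 and 7.55 on replicate 2 (7.59 ± 0.07). KIF11, which pushes the spindle poles apart, read 6.12 and 6.46, and KIF15, which can share that task, read 6.07 and 5.85. These motors lay above the second threshold on both arrays, as did KIF14 (5.42 and 6.01), needed in cytokinesis, and KIF18A (5.71 and 5.55), which dampens chromosome movement at the metaphase plate. KIF20B (5.48 and 5.67) and the chromosome-bound motor KIF4A (5.62 and 5.37, uncertain because of its near-identical copy KIF4B) completed the 7 that passed it. CENPE is a kinesin of the kinetochore that carries chromosomes to the spindle equator, and it read 5.36 and 5.90, above the second threshold on replicate 2 and just under it on replicate 1. KIF22, another chromosome-bound motor, read 5.30 and 5.50 when its 2 probe sets were averaged, and KIF20A, which moves the chromosomal passenger complex to the central spindle, read 5.30 and 5.28. Both likewise passed on replicate 2 and not on replicate 1.

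KIF2C and KIF18B were the lowest of the mitotic kinesins. The depolymerase gene KIF2C read 3.64 and 4.27 (3.95 ± 0.45), and KIF18B, which cooperates with KIF2C at astral microtubules, read 4.16 and 4.14. The 2 probe sets of KIF18B, however, read 3.81 and 4.50 as means over the arrays and moved in opposite directions, from 3.60 to 4.01 and from 4.72 to 4.28, so their average differed less between the arrays than either did. Those of KIF22 had closer means, 5.36 and 5.44, but also moved in opposite directions, from 5.08 to 5.64 and from 5.52 to 5.35. The latter probe set alone lay above the second threshold on both arrays, unlike the average.

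**Figure D2:**
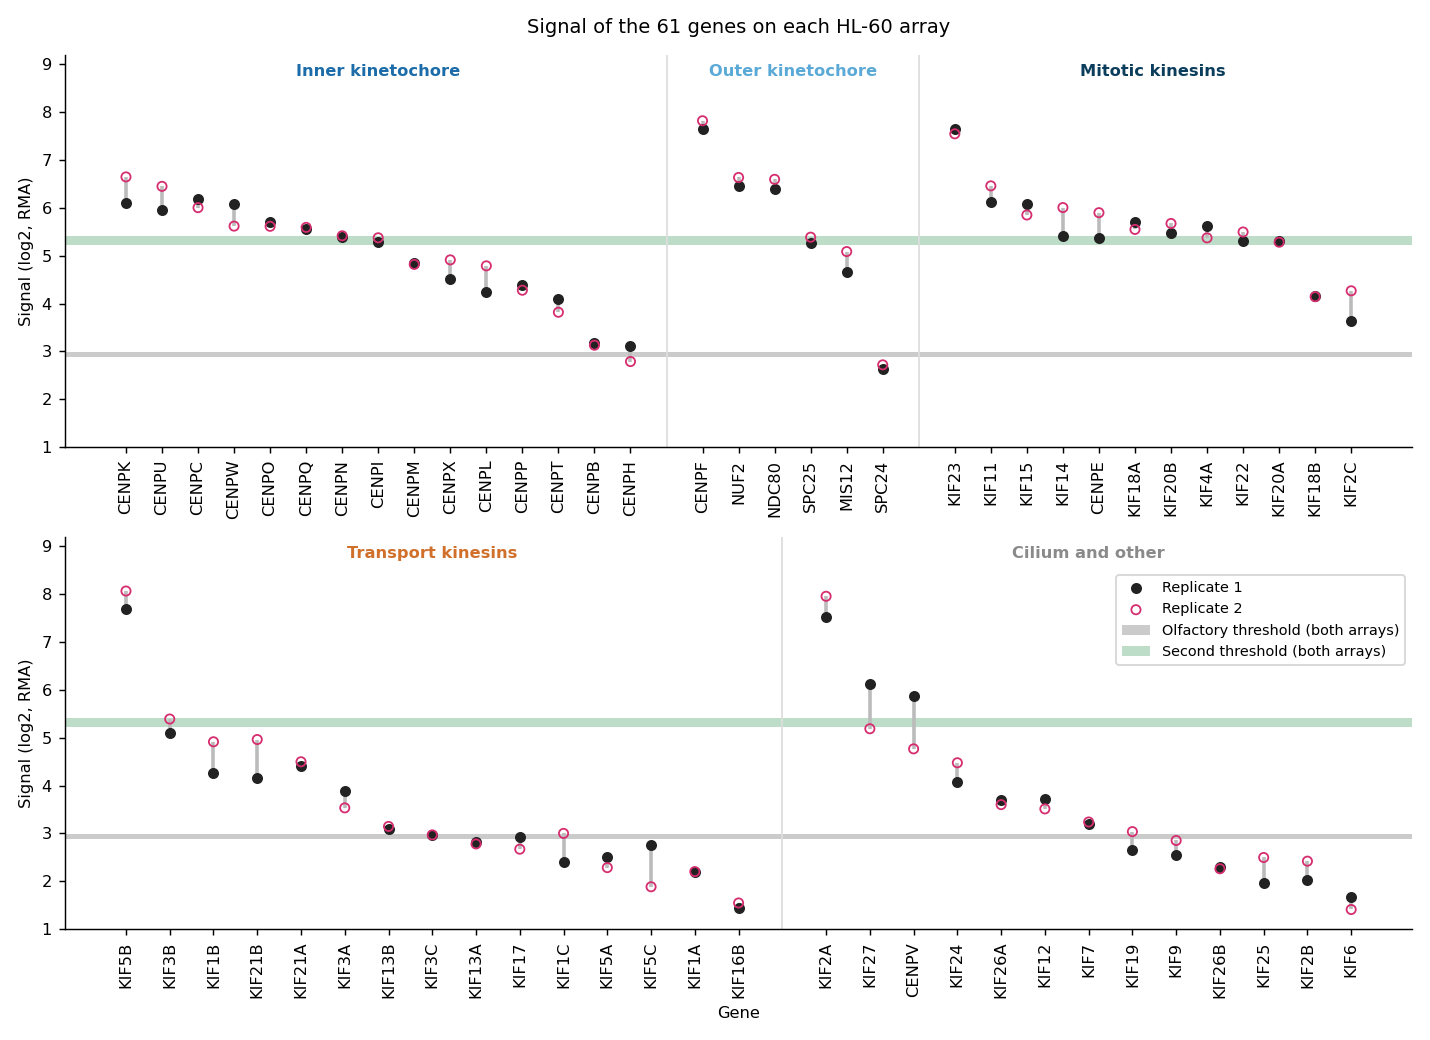
Log2 RMA signal (y axis) of each of the 61 genes (x axis), ordered by mean within each group, with filled points for replicate 1 and open points for replicate 2. Horizontal bands span the olfactory threshold (2.88 to 2.98) and the second threshold (5.23 to 5.41) of the 2 arrays. KIF5B and KIF2A stand at the top of the lower panel, where most other genes lie near or under the olfactory threshold.

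Promoter sequences were set beside these signals because genes of late cell cycle phases are known to share the cell cycle genes homology region (CHR), an element bound by MuvB complexes, often with CCAAT boxes bound by NF-Y nearby. RefSeq promoter windows of GRCh38.p14, from 250 bases before to 50 after an annotated start site, were searched on both strands for TTTGAA and TTCGAA (CHR-type) and for CCAAT, and matches of the different motifs did not need to be apart. The table held windows for 52 of the 61 genes. The 150 bases before the start site are shown for 6 mitotic kinesins that hold a CHR-type match there. They run 5′ to 3′ on the gene's strand, and capitals mark CHR-type matches (TTTGAA, its reverse complement TTCAAA, or TTCGAA) and CCAAT boxes (CCAAT or ATTGG).
KIF23 (chr15:69414199-69414348, plus strand): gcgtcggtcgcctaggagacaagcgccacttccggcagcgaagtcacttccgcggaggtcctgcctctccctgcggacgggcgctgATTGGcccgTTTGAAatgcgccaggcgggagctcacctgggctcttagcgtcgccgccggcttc
KIF4A (chrX:70289954-70290103, plus strand): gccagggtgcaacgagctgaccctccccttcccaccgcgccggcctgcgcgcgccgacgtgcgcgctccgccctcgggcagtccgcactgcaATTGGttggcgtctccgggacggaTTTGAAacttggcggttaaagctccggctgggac
KIF11 (chr10:92592980-92593129, plus strand): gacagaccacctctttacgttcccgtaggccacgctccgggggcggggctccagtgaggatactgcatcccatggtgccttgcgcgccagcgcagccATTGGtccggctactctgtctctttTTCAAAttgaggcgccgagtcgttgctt
KIF18A (chr11:28108157-28108306, minus strand): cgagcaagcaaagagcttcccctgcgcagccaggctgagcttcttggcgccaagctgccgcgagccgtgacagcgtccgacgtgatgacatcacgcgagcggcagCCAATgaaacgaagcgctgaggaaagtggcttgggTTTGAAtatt
KIF15 (chr3:44761644-44761793, plus strand): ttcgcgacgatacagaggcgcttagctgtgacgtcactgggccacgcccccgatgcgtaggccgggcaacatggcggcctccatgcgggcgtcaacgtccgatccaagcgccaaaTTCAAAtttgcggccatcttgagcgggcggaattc
KIF22 (chr16:29790601-29790750, plus strand): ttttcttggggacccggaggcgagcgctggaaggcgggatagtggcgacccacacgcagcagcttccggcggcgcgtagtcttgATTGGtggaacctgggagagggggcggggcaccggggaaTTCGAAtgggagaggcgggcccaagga

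In 5 of these promoters, those of KIF23, KIF4A, KIF11, KIF18A and KIF22, a CCAAT box preceded the CHR-type match, and that of KIF15 held no CCAAT box. The CHR-type match began at base -55 from the start site in KIF23, -34 in KIF4A, -28 in KIF11, -10 in KIF18A, -35 in KIF15 and -27 in KIF22. In KIF14, KIF18B and KIF20B it lay just behind the start site, beginning at base 2, 3 and 25. Thus 9 of 12 mitotic kinesin genes held a CHR-type match, as did 10 of their 13 windows (76.9%), KIF22 having a pair of windows over the same match, which begins at base -244 from its other start site. The exceptions were CENPE, KIF2C and KIF20A, all of which were above background, and the lack of a match says only that these letters are not in these windows. Such a match was held by 16.4% of all 35116 windows, and a CCAAT box by 34.6%. Among windows of genes named on the array the shares were 13.6% and 34.5%.

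For contrast, the same stretch is shown for the 2 transport kinesins with the highest signals.
KIF5B (chr10:32056426-32056575, minus strand): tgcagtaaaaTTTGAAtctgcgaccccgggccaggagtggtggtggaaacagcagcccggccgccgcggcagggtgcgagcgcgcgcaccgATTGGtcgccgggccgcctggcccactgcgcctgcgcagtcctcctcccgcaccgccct
KIF3B (chr20:32277501-32277650, plus strand): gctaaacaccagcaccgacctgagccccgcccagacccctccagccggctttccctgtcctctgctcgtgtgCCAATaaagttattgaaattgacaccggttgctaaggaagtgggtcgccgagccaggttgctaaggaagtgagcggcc

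KIF5B was the only one of 12 transport kinesin genes with windows to hold a CHR-type match, at base -140. This is 1 of 17 windows (5.88%), some of which overlap. The share lay under that of all promoters, but with so few windows it says little. CCAAT boxes were found in 5 of these 17 windows (29.4%) and in 9 of the 13 mitotic kinesin windows (69.2%). Among the outer kinetochore genes 4 of 7 windows (57.1%) held a CHR-type match, those of NDC80, NUF2, SPC25 and CENPF, and among the inner kinetochore genes 4 of 14 (28.6%), those of CENPC, CENPN, CENPO and CENPW. In the group of cilium and other genes it was 1 of 13 windows (7.69%), that of KIF24. Lists of other cell cycle genes gave the setting: 10 of 19 windows (52.6%) of G2 and mitosis genes held the match and 3 of 15 (20%) of G1 and S phase genes, while CCAAT boxes were found in 15 (78.9%) and 11 (73.3%) of these windows, so a high CCAAT share was shared by both phases. Related genes outside the symbol rule held the match as well. It was found in 6 of 10 windows (60%) of kinetochore assembly genes and 6 of 11 (54.5%) of spindle checkpoint genes. For passenger complex genes it was 2 of 4 (50%), and for motor partners 1 of 4 (25%). The shares of all these groups, mitotic kinesins included, rest on few windows. A match is a description of the sequence, and binding was not measured.

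**Figure D3:**
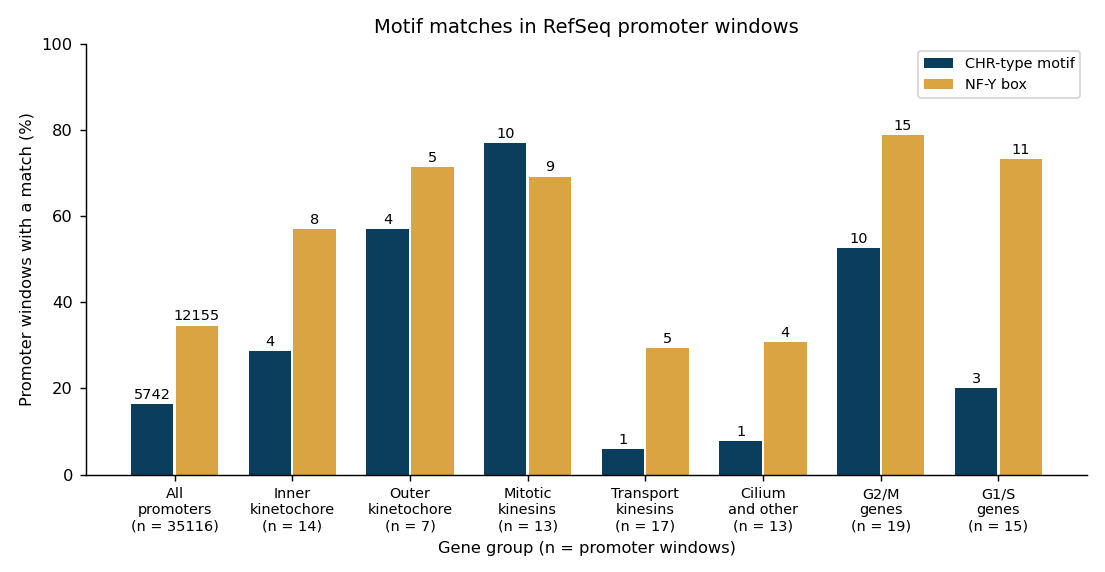
Percentage of RefSeq promoter windows (y axis) with a CHR-type motif or an NF-Y (CCAAT) box for all promoters, the 5 gene groups and the lists of G2/M and G1/S genes (x axis), with the number of windows above each bar. Of the mitotic kinesin windows 10 of 13 held the CHR-type motif, against 1 of 17 of the transport kinesins.

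The outer kinetochore genes held a contrast within a single complex. CENPF, a large protein of the outermost corona that accumulates in G2, was the highest of the kinetochore genes at 7.65 on replicate 1 and 7.82 on replicate 2 (7.73 ± 0.12). The Ndc80 complex, the main microtubule coupler of the kinetochore, is built from NDC80 and NUF2, which reach the microtubule, and from SPC24 and SPC25, which anchor the complex. NDC80 read 6.39 and 6.60 and NUF2 6.45 and 6.64, both above the second threshold. SPC25 read 5.26 and 5.39, above background on both arrays and above the second threshold on replicate 2. SPC24 read 2.62 and 2.72 (2.67 ± 0.07) and was not above background on either array. MIS12, a subunit of the complex that links the inner kinetochore to Ndc80, read 4.66 and 5.09.

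Inner kinetochore genes were above background in 14 of 15 cases and above the second threshold in 6. CENPC, the protein that ties CENP-A nucleosomes to the outer kinetochore, read 6.18 and 6.01. CENPB, which binds a short sequence of centromeric satellite DNA, was near the bottom with 3.17 and 3.13 (3.15 ± 0.03), and it was under the threshold when the 99th percentile of the olfactory receptors was used. Of the subunits that form a unit with CENPH, CENPK was the highest gene of the group (6.10 and 6.65), CENPI read 5.29 and 5.37 and CENPM 4.86 and 4.82. CENPH itself read 3.12 and 2.79, above background on replicate 1 and not on replicate 2. Partner subunits of 1 complex thus gave signals on different sides of the thresholds, as in the Ndc80 complex, and whether their RNA or their probes differ cannot be told from these arrays.

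The genes of another unit of this network lay closer together. CENPU read 5.96 and 6.45, CENPO 5.70 and 5.62 and CENPQ 5.56 and 5.59, all above the second threshold, and CENPP read 4.39 and 4.28. Among the histone-fold subunits CENPW read 6.09 and 5.62, CENPX 4.51 and 4.91 and CENPT 4.09 and 3.82. CENPN, which recognises the CENP-A nucleosome, read 5.40 and 5.42, and its partner CENPL 4.25 and 4.79. All 9 genes of this paragraph were above background on both arrays. CENPA, the histone variant itself, shared its probe set with SLC35F6 and was not counted among the 61 genes.

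KIF5B stood apart among the transport kinesins. It encodes the widely expressed heavy chain of conventional kinesin and read 7.70 and 8.07 (7.89 ± 0.26), the highest signal of the 61 genes and the only transport kinesin above the second threshold on both arrays. Its close relatives KIF5A (2.52 and 2.29) and KIF5C (2.77 and 1.89), known chiefly from neurons, were not above background on either array. KIF3B and KIF3A form a heterodimer that carries cargo in cilia and elsewhere, and read 5.10 and 5.39 and 3.89 and 3.54. KIF3C, a further member of that subfamily, read 2.97 on both arrays, between the thresholds of the arrays.

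The other subfamilies were divided as well. KIF1B, a carrier of mitochondria and vesicle precursors, read 4.27 and 4.92, whereas KIF1A, a carrier of synaptic vesicle precursors, read 2.20 on both arrays. KIF1C read 2.40 and 3.002 and passed on replicate 2 only. KIF21A (4.41 and 4.50) and KIF21B (4.15 and 4.96), motors that also restrain microtubule growth, were both above background. KIF13B read 3.10 and 3.15, near the threshold, and KIF13A 2.82 and 2.78, under it. KIF17 (2.92 and 2.67) and the endosome motor KIF16B (1.45 and 1.55), the lowest of the 61 genes, were not above background. KIF3A and KIF13B were lost at the 99th percentile threshold.

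Of the remaining genes KIF2A was the highest, at 7.53 and 7.96 (7.74 ± 0.30). It encodes a microtubule depolymerase that acts at spindle poles and in neurons, and so it was placed with neither of the contrasted roles. Its relative KIF2B (2.03 and 2.42) was not above background, so that the depolymerase genes KIF2A, KIF2C and KIF2B lay above the second threshold, between the thresholds and under both. KIF24, which acts at centrioles, read 4.08 and 4.48. KIF27 read 6.13 and 5.19 and its relative KIF7, a regulator of Hedgehog signalling at the cilium, 3.20 and 3.24.

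The lower part of this group lay at the background. KIF26A (3.70 and 3.60) and KIF12 (3.71 and 3.51) were above it, and KIF26B (2.31 and 2.26) was not. The cilium genes KIF19 (2.65 and 3.04), KIF9 (2.56 and 2.85) and KIF6 (1.66 and 1.41) did not pass on both arrays, nor did KIF25 (1.97 and 2.50). In all, 12 of the 61 genes were under the threshold on both arrays and 4 on 1 array, those 4 being CENPH, KIF3C, KIF1C and KIF19. Thus 46 of the 61 passed on replicate 1, 48 on replicate 2 and 45 (73.8%) on both. Of all 18404 genes 10796, 11135 and 10266 (55.8%) did so.

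Genes that work with the kinetochore but lie outside the symbol rule gave a similar count. Of 27 measured genes of kinetochore assembly, the spindle checkpoint and the chromosomal passenger complex, all 27 were above background and 15 (55.6%) above the second threshold. In kinetochore assembly SKA2 (6.42 and 6.58) and KNL1 (6.31 and 6.55), the scaffold of checkpoint signalling, were the highest and OIP5, which helps to load CENP-A, the lowest (3.13 and 3.05). Among 12 checkpoint genes BUB1B (7.41 and 7.30) and SPDL1 (6.97 and 7.74) led and MAD1L1 (4.42 and 4.14) was the lowest. In the passenger complex BIRC5 read 6.28 and 6.47 and the kinase gene AURKB 6.02 and 6.39, above INCENP with 5.21 and 4.92. Of 8 motor partners, kinesin light chains and C-type kinesins, 7 were above background and 1 above the second threshold, KLC1 (5.61 and 5.84). KIFAP3, the adaptor of the KIF3A and KIF3B heterodimer, read 4.94 on both arrays, and KLC2 (2.86 and 3.32) was the lowest.

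For 1 of the 61 genes (1.64%) the arrays lay over 1 apart (log2), against 1.96% of all genes. This was CENPV, a protein that bundles microtubules, with 5.87 on replicate 1 and 4.77 on replicate 2, a difference of -1.10 or 2.14-fold. Such a difference toward replicate 1 was seen in 0.880% of all genes, and one toward replicate 2 in 0 of the 61 genes and 1.08% of all genes. KIF27 (-0.94, although a probe set that it shares with LOC389765 was higher on replicate 2) and KIF5C (-0.88, not above background) followed, and KIF21B (0.81), KIF1B (0.64), KIF2C (0.63) and KIF1C (0.60) had the largest differences in the other direction. Differences over 0.5 were seen for 12 of the 61 genes (19.7%) and for 17.5% of all genes. The spread of the 61 genes between the arrays was therefore near that of the whole array. With 1 array on each side these differences have no replicate check.

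All 6 outer kinetochore genes were higher on replicate 2, by 0.09 (SPC24) to 0.42 (MIS12), with a median difference of 0.18. Among all genes 42.1% were higher on replicate 2 and the median difference was -0.04. Mitotic kinesins were divided, 6 higher on each array (median 0.09), as were inner kinetochore genes, 7 higher on replicate 2 and 8 on replicate 1 (median -0.04). Transport kinesins were higher on replicate 2 in 8 of 15 cases, lower in 5 and equal in 2, KIF1A and KIF3C, and 11 of 15 were higher there after quantile normalization of the arrays or removal of a loess trend. These rescalings also moved the share of all genes higher on replicate 2 to 49.8% and 50.9%, and the transport kinesins that they added, KIF1A, KIF3C and KIF13A, were not above background on both arrays. Exactly equal values made up 5.23% of all genes. Other cell cycle genes are given beside these. Of 15 G2 and mitosis genes 8 were higher on replicate 2 (median 0.07), 10 after quantile normalization and 8 after removal of the loess trend. Of 15 G1 and S phase genes 4 were higher there (median -0.19). In the first list TOP2A (8.02 and 8.36) and TPX2 (7.64 and 8.10) had the highest signals and CDC25B (3.81 and 4.12) the lowest, and in the second TYMS (9.68 and 9.51), PCNA (7.97 and 8.12) and CDT1 (3.67 and 3.70). The promyelocyte markers differed more: 3 of 9 were over 1 apart, CTSG (-1.75), PRTN3 (-1.48) and MS4A3 (-1.10), all lower on replicate 2. Counting any difference, 4 of the 9 were higher on replicate 2 and 5 lower. The part of these lists in the differences of the 61 genes was not tested.

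**Figure D4:**
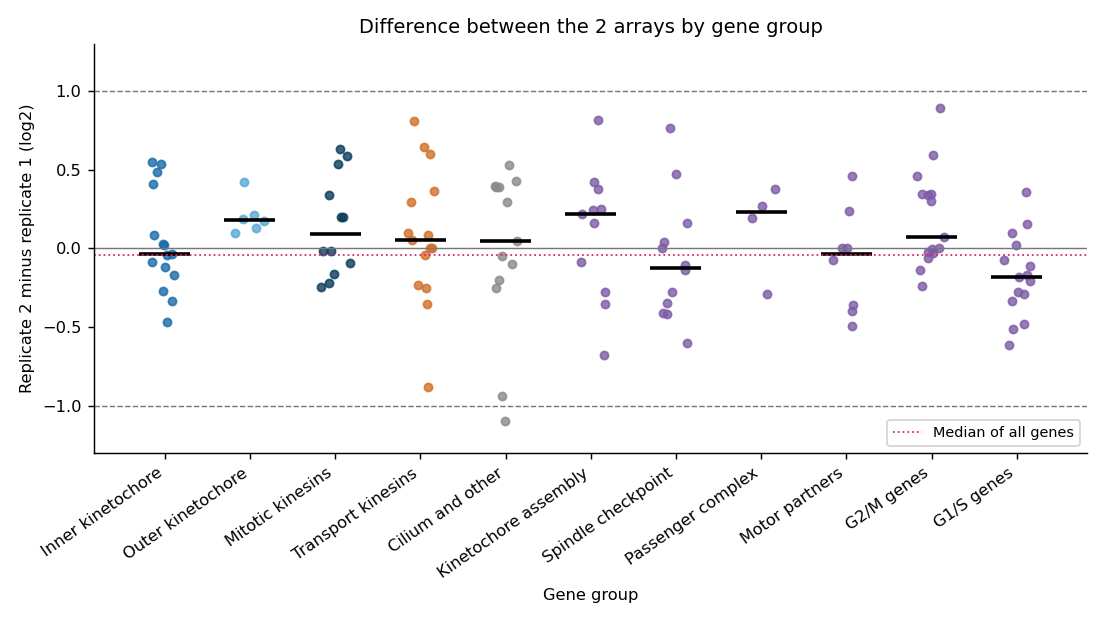
Difference between the arrays, replicate 2 minus replicate 1 on the log2 scale (y axis), for each gene of the 5 groups and of 6 lists of related genes (x axis), with a bar at each median. The dotted line is the median of all genes (-0.04) and dashed lines mark 1 and -1; the 6 outer kinetochore genes all lie above 0 and CENPV alone lies beyond -1.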

How the data were processed

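Both arrays were analysed from 1 table of 32321 probe sets. The deposited values are log2 signals made by the authors with RMA, per the submitters' processing notes; which software was used is not given in the sources used here, nor which arrays were normalized jointly. Base 2 was taken because RMA uses it. RMA equalises the distributions of probe intensities of arrays normalized together, so these values cannot show a change in total RNA. The summarised signals were not exactly equal in distribution, and both thresholds were lower on replicate 2. Background correction, detection p-values and scan batches were not examined. The number of arrays limits the precision.

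Of the probe sets, 19158 carried 1 symbol in the platform annotation, 1388 several and 11775 were not listed; only the first kind was named. Genes with several probe sets took their mean. Updating symbols through Entrez IDs (19128 of 19158 found in RefSeq, GRCh38.p14) changed no symbol among the 61 genes.

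The members, roles and lists were chosen with earlier results of these data known, and the promoter motifs after the signals had been seen. Named genes were all members and, from each related list, its 2 highest and its lowest by mean and any over 1 apart between the arrays (of the cell type marker lists, only those over 1 apart); list genes without a probe set of their own are not reported here. Beyond counts, shares, medians and differences between arrays no test was run, because there is 1 group. A check on simulated data covered only the median of an added shift and a count above fixed cutoffs. It did not cover the percentile thresholds, the rescalings or the promoter search. Alternatives were a 99th percentile threshold, the highest probe set per gene, each array alone, quantile normalization, loess, updated symbols and a filter on dim genes. Python 3.11.15, numpy 2.4.6, pandas 2.3.3, statsmodels 0.14.6 and matplotlib 3.10.9 were used.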

Additional observations from a re-analysis of the deposited data

Results flagged for a closer look

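Signal also appeared in probe sets that carry the symbol of one of these genes together with another gene and were left out of the counts. Of 6 such probe sets 5 were above background on both arrays and 1 above the second threshold. The probe set shared by CENPA and SLC35F6 read 6.06 on both arrays. That shared by KIF27 and LOC389765 had a mean of 4.93 and was higher on replicate 2 (4.50 and 5.36), whereas the probe set of KIF27 alone was lower there. The probe set of KIF4A and its near-identical copy KIF4B had a mean of 4.27, that of CENPS and CORT 4.24, and that of KIF5B and RET 4.45. Which of the genes gave these signals cannot be told apart.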

How the results depend on the processing

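No paired analysis was possible because both arrays belong to 1 group. Of 136 recomputed values of 20 results 9 counted as moved and 127 did not. Counts moved if they changed by over 1.5 times, and median signals if by more than the spread between the arrays. Median differences were judged against 0.39, so that of cilium and other genes did not count (0.04, or -0.10 with genes above background only). Many values could hardly move. The 99th percentile applied to the olfactory threshold only, loess kept the mean of the arrays, and updated symbols changed none of the 61 genes. With the 99th percentile threshold 4 in place of 7 cilium and other genes were above background. With genes above background only, the median signal was 5.33 for all 61 genes, 5.58 for kinetochore and mitotic kinesin genes, 4.56 for transport kinesins and 4.28 for cilium and other genes, because dim genes were left out. On each array alone the kinetochore and mitotic kinesin median was 5.40 to 5.50 and that of transport kinesins 2.97 to 3.002. Above the second threshold were 1 to 2 transport kinesins, 2 without replicate 1 (KIF3B joining), and 1 to 3 cilium and other genes, 3 without replicate 2 (KIF27 and CENPV joining). The median difference over all genes, -0.04 as deposited, became 0.00 with quantile normalization and 0.01 with loess. Other background corrections and a block for slide were not run without scanner files.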
